A study of Homo sapiens with 96 samples.

Results

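The genes described here are nuclear copies of the mitochondrial protein genes, stretches of mitochondrial DNA that were inserted into the chromosomes and are annotated as pseudogenes. They were chosen by symbol (MTND, MTCO, MTCYB or MTATP, the number of the mitochondrial gene, then P and a copy number) and by a read in at least 10% of the reference libraries. Of 177 symbols of this form among 58521 in all, 44 met both conditions; 26 had no read in these libraries and 107 had a read in at most 8 of them. Detection in these same libraries chose the 44, so their detection is not a result. The copies just inside the minimum had a read in 9 libraries (MTND5P16, MTND5P26, MTND1P3, MTND5P18 and MTND6P14). Just outside it, with a read in 8, the highest mean levels were those of MTND5P29 (6.76 reads per 1000000 gene reads) and MTND1P19 (4.29).

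The libraries were made from 96 wells of 1 plate with 8 rows and 12 columns, each holding 1 cell of HUES64, an established human embryonic stem cell line, as labelled. All wells carried an inducible knockout of DNMT1, the methyltransferase that copies DNA methylation marks after replication, and all were labelled day 0. On doxycycline the labels conflicted: 1 field stated that it had been added and another that it had not. Poly(A) RNA was pulled down from the lysate and read by SMART-seq2, a method that copies whole transcripts from single cells. With 1 label for all wells and no second culture named, the plate counts as 1 sample. No test between wells was therefore made, and every SD, range and ratio below describes the libraries of this plate.

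Mitochondria keep a small circular genome whose protein genes code for subunits of the respiratory chain and the ATP synthase. Fragments of this genome have been copied into the chromosomes many times during evolution. Most nuclear copies carry stop codons or are read with a different genetic code, and they are not known to make the respiratory subunits. Recent copies still resemble the mitochondrial genome so closely that a short sequencing read may fit either place, while old copies have diverged and are told apart easily. RNA of the mitochondrial genome is abundant in every cell type.

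The reference libraries were the 84 with at least 100000 gene reads, 2000 detected genes and 1% of gene reads on mitochondrially encoded genes (symbols starting with MT-). They had 118549 to 1877837 gene reads (median 768161), so that 3 reads, taken as the floor, stood for 1.60 to 25.3 reads per 1000000 gene reads (CPM). A further 6 libraries passed the depth and gene minimum with under 1% mitochondrial reads, and 6 others did not pass and entered no level. Of the reference libraries, 22 lay in plate rows F and G and 62 in rows A to E and H. These rows stood apart before any gene was considered. Reads outside annotated genes made up 22.2 to 36.9% of all reads in rows F and G (median 32.6%) and 12.7 to 19.4% in the others (median 15.3%), with no overlap. Unmapped reads had medians of 21.1% and 39.1%, gene reads of 498244 and 889048, and genes with a read of 16155 and 13345.5. The mitochondrial share was alike, with medians of 9.31% and 9.80%. The 6 pluripotency markers examined all had a mean of at least 10 CPM; 4 of 5 neural, 1 of 6 fibroblast and 0 of 4 endoderm markers did. The summed neural markers were at 210 to 2012 CPM in rows F and G (median 481) and at 31.3 to 1071 CPM elsewhere (median 213). The 5 markers did not move alike. In the same order, the means were 322 and 85.6 CPM for PAX6, 152 and 104 for MAP2 and 7.60 and 2.91 for SOX1. NES had 56.4 and 55.6 CPM, and TUBB3 18.7 and 20.7. The files hold reads without molecular identifiers, so floors and intervals cover counting error only.

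All 44 copies were found in GENCODE 29, which places genes on GRCh38; they lay on 14 chromosomes and were 192 to 1812 bases long (median 1081.5), and 39 had a single exon. Their identity to the mitochondrial gene over the aligned bases ran from 72.9 to 99.1%, with a median of 77.5%. Only 6 were at least 95% identical: MTND1P23 (99.1%, over the 352 bases that aligned), MTATP6P1 (98.5%), MTND2P28 (98.4%), MTATP8P1 (97.6%), MTND4P12 (95.8%) and MTND6P4 (95.02%). Another 29 were under 80% identical. Only 5 copies contained any 75-base stretch that also stands in a transcript of the mitochondrial genome, on either strand. In MTND1P23 such stretches were 48.3% of all, in MTND2P28 34.3% and in MTATP6P1 28.01%. The pairs below show how far apart a copy and its mitochondrial gene can be; each is 60 bases from the 5′ end of the window, on the coding strand, with the bases at which the pair differs in capitals. Sequences are those of GENCODE 29 on GRCh38. MTND2P28, the copy with the highest mean level, differs from MT-ND2 at 17 of 1042 aligned bases, 4 of them in chr1:630069-630128 (plus strand), against chrM:4899-4958.
MTND2P28: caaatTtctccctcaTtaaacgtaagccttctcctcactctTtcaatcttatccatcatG
MT-ND2: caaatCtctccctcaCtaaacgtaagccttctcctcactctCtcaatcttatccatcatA
MTATP6P1 differs from MT-ATP6 at 10 of 681 bases, 3 of them in chr1:633811-633870 (plus strand), against chrM:8642-8701.
MTATP6P1: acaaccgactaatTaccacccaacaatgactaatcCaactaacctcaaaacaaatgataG
MT-ATP6: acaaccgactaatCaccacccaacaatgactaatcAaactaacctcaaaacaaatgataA
MTND1P23 holds only part of MT-ND1 and differs from it at 3 bases, 2 of them in chr1:629215-629274 (plus strand), against chrM:4045-4104.
MTND1P23: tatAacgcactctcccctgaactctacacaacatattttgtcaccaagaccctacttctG
MT-ND1: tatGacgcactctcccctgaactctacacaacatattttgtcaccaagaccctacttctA
MTND4P12 differs from MT-ND4 at 58 of 1376 bases, 7 of them in chr5:134927874-134927933 (minus strand), against chrM:10863-10922.
MTND4P12: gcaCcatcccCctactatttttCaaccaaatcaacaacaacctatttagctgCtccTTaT
MT-ND4: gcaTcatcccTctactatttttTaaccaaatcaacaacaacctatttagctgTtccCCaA
MTND1P14 is an old copy of MT-ND1 (78.6% identical), with 23 differences in chr17:19602456-19602515 (plus strand), against chrM:3506-3565.
MTND1P14: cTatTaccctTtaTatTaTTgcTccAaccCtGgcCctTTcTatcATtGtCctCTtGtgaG
MT-ND1: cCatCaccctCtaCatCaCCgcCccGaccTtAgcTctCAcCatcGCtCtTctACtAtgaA

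The 44 copies together took 43922 reads in the reference libraries, 95.5% of the reads on all 177 symbols and 0.0646% of all gene reads. Their summed level was 720 ± 439 CPM (SD, n = 84), from 181 to 2894 with a median of 593. For every 100 reads on the 13 mitochondrial protein genes there were 0.771 on the copies. The reads were concentrated on few copies. MTND2P28 and MTATP6P1 took 74.2% of them and the 8 copies with a mean of at least 10 CPM took 93.6%; 13 copies had a mean of 1 to 10 CPM and 23 a mean under 1. Only 3 copies had a read in all 84 libraries, and 30 had a median of 0. Of the 13 mitochondrial protein genes, 9 had a copy that met the minimum; MT-ND3, MT-ND4L, MT-CO2 and MT-CO3 had none.

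Copies of complex I genes, whose products carry electrons from NADH into the chain, were 36 members for 5 genes. MT-ND5 had 12 of them, MT-ND4 9, MT-ND1 8, MT-ND2 4 and MT-ND6 3, which with 2 each for MT-CYB, MT-CO1, MT-ATP6 and MT-ATP8 make up the 44. MTND2P28, a copy of the membrane subunit gene ND2, had 245 ± 191 CPM (SD, n = 84), from 13.8 to 1336. Its level was highest in well E10, which held 6.48% of its summed CPM. The 3 copies of ND1 with the highest means, the subunit beside the quinone site, came next: MTND1P14 with 45.4 ± 81.8 CPM (3.55 to 614), MTND1P23 with 28.9 ± 51.7 CPM (0 to 241) and MTND1P15 with 22.05 ± 41.9 CPM (0 to 185). Their medians of 15.7, 5.01 and 3.84 CPM lay far below the means, because a minority of libraries was high. MTND4P12, a copy of the proton-pumping subunit gene ND4, had 20.3 ± 14.01 CPM (0 to 110, median 18.5). The remaining complex I copies were lower, among them MTND2P18 at 7.72 ± 9.65 CPM and MTND5P11 at 5.97 ± 5.40 CPM.

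Copies of the other complexes were few. MTCYBP1, a copy of cytochrome b (the subunit of complex III that passes electrons from ubiquinol), had 76.9 ± 164 CPM with a median of 9.69, and MTCYBP3 had 11.1 ± 17.04 CPM with a median of 5.91. Of the catalytic subunit of complex IV, MTCO1P4 had 1.81 ± 4.53 CPM and MTCO1P3 0.19 ± 0.63 CPM. MTATP6P1, a copy of the subunit of the ATP synthase that forms the proton channel, had 218 ± 153 CPM (29.8 to 952, median 178). MTATP8P1 and MTATP8P2, copies of a small subunit of the same enzyme, had 5.39 ± 14.9 and 3.24 ± 4.43 CPM. There were 3 copies that rested on 1 library for more of their summed CPM than on all others together: MTND5P16 (54.2% in well H12), MTND5P1 (54.9% in H3) and MTND5P26 (54.9% in H5). Per kilobase the mean levels were 321 CPM for MTATP6P1, 235 for MTND2P28, 77.8 for MTND1P23, 68.7 for MTCYBP1 and 47.8 for MTND1P14.

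**Figure D1:**
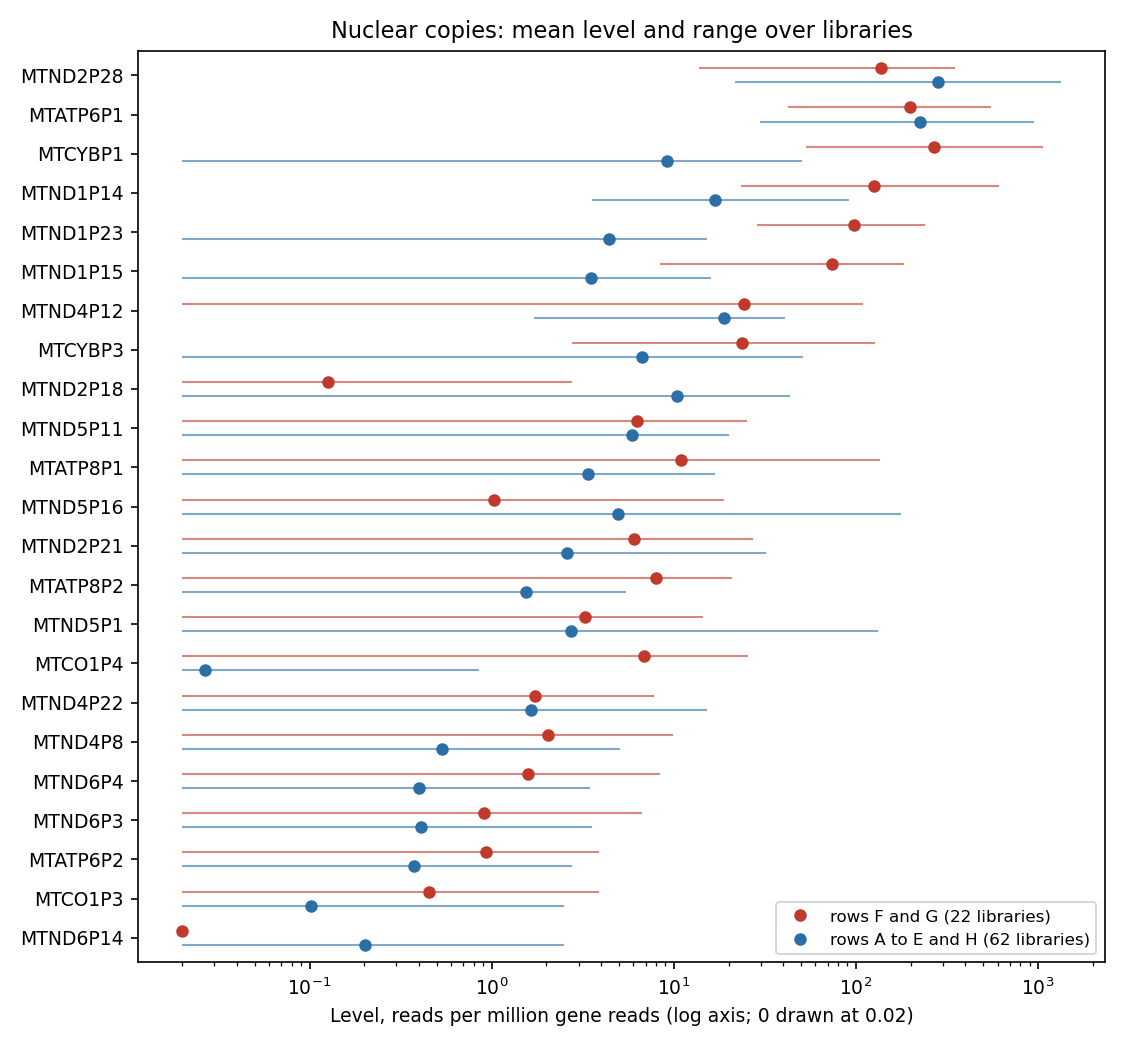
Mean level (points) and lowest to highest library (lines) of the 23 named copies, in CPM on a log axis with 0 drawn at 0.02, for rows F and G (red, 22 libraries) and rows A to E and H (blue, 62 libraries). MTCYBP1 and MTND1P23 show separate ranges in the rows, MTND2P28 and MTATP6P1 show overlapping ranges, and MTND2P18 lies the other way.

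Set against the mitochondrial gene in the same library, the copies were of unlike kinds. In 3 of the 44 the level followed that of the mitochondrial gene with a Spearman correlation of at least 0.5 over the 84 libraries. MTATP6P1 had rho = 0.91 with MT-ATP6 (Pearson r = 0.86, and 0.86 without the 2 libraries farthest from the median of MT-ATP6). MTND2P28 had rho = 0.81 with MT-ND2 (r = 0.81, and 0.77 without 2 libraries). MTND4P12 had rho = 0.70 with MT-ND4 (r = 0.67, and 0.61 without 2 libraries). Points of these correlations share a library and its gene read total, and no p-value is given. The other 41 copies had rho from -0.27 to 0.41, with a median of 0.02. Of the 44, 30 had a median of 0, and for such sparse copies a rho near 0 cannot show that the level does not follow. Within the rows the 3 copies with rho of at least 0.5 remained high, at 0.86, 0.89 and 0.79 in rows F and G and 0.92, 0.87 and 0.76 in the others, in the same order. MTATP8P1 had rho = 0.41 over all libraries, but 0.68 within rows F and G and 0.50 within the others. MTATP8P2 had 0.14 over all and 0.86 and 0.40 within the rows. For MTND1P14 the values were -0.24 over all, -0.17 within rows F and G and -0.18 within the others.

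The size of the ratio to the mitochondrial gene differed as well. Per length, the mean level of MTATP6P1 was 8.87% of that of MT-ATP6 and that of MTND2P28 was 6.76% of that of MT-ND2. MTND1P23 stood at 2.19% of MT-ND1, MTND1P14 at 1.34% and MTCYBP1 at 0.69% of MT-CYB, and MTND4P12 at 0.30% of MT-ND4. In single libraries MTATP6P1 had 2.21 to 20.1 reads for every 100 of MT-ATP6 (median 8.54). The median was 9.77 in rows F and G and 8.02 in the others. MTND2P28 had 2.19 to 5.76 reads for every 100 of MT-ND2 in rows F and G (median 4.13) and 0.99 to 13.5 in the others (median 7.86). MTND1P14 had 0.83 to 292 reads for every 100 of MT-ND1 in rows F and G (median 3.86) and 0.07 to 14.6 in the others (median 0.48); in 1 library of rows F and G it had more reads than MT-ND1. Across the 44 copies, identity to the mitochondrial gene had rho = 0.41 with this correlation and rho = 0.36 with the mean level per length, but -0.03 with the log2 row ratio of the 43 copies that had one. The first value is limited by sparse copies, since 30 of the 44 had a median of 0. MTND1P23 is the most identical copy of all and had rho = 0.06 with MT-ND1 over all libraries, -0.18 within rows F and G and 0.37 within the others.

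**Figure D2:**
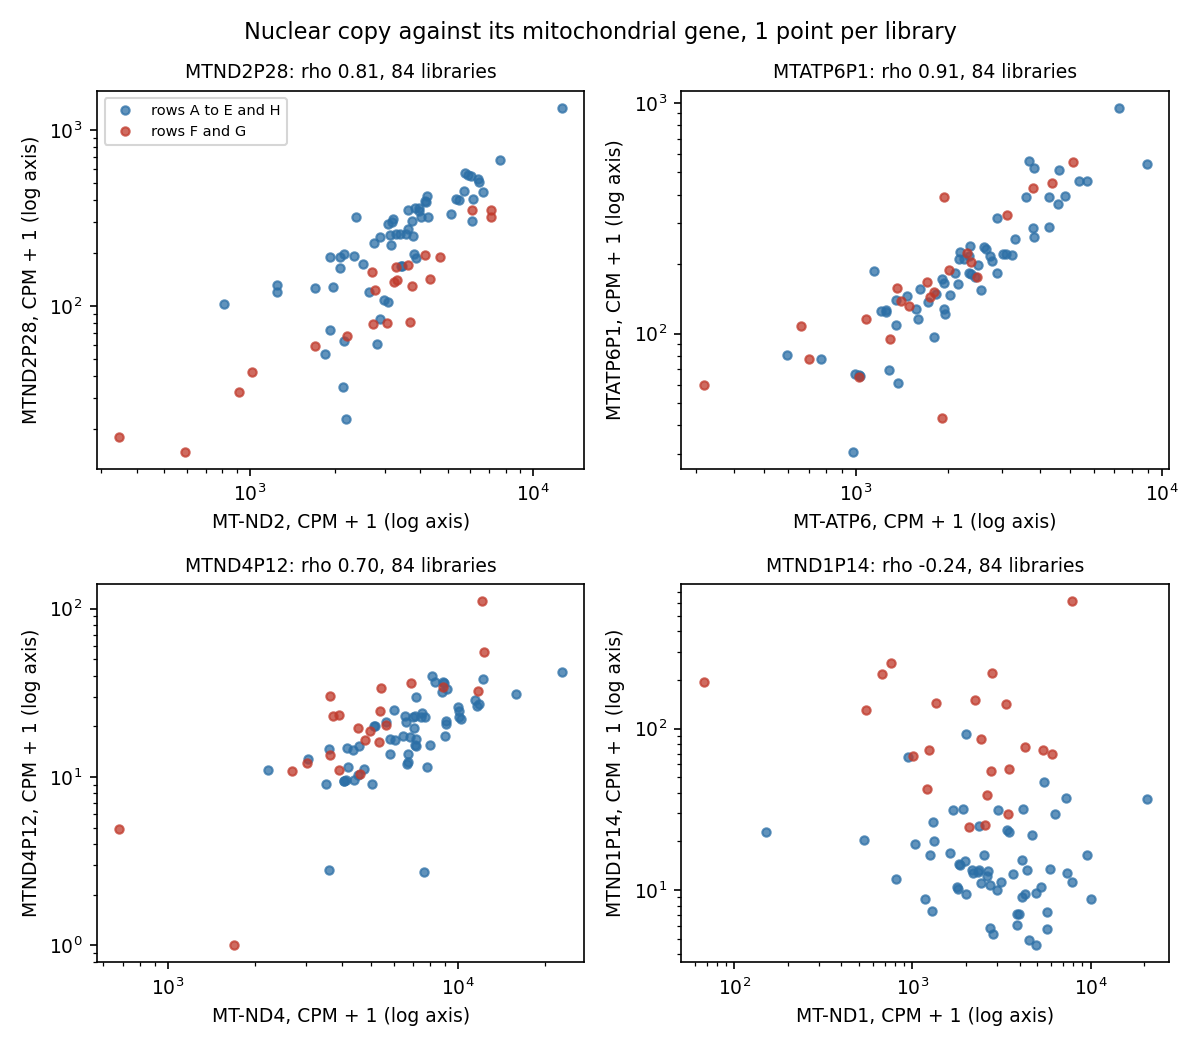
Level of 4 copies against that of their mitochondrial gene, CPM + 1 on log axes, 1 point per reference library (84), with rows F and G in red and the others in blue. Points for MTND2P28, MTATP6P1 and MTND4P12 rise along a diagonal (rho 0.81, 0.91 and 0.70), and those for MTND1P14 do not (rho -0.24), with the red points above most of the blue ones.

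**Figure D3:**
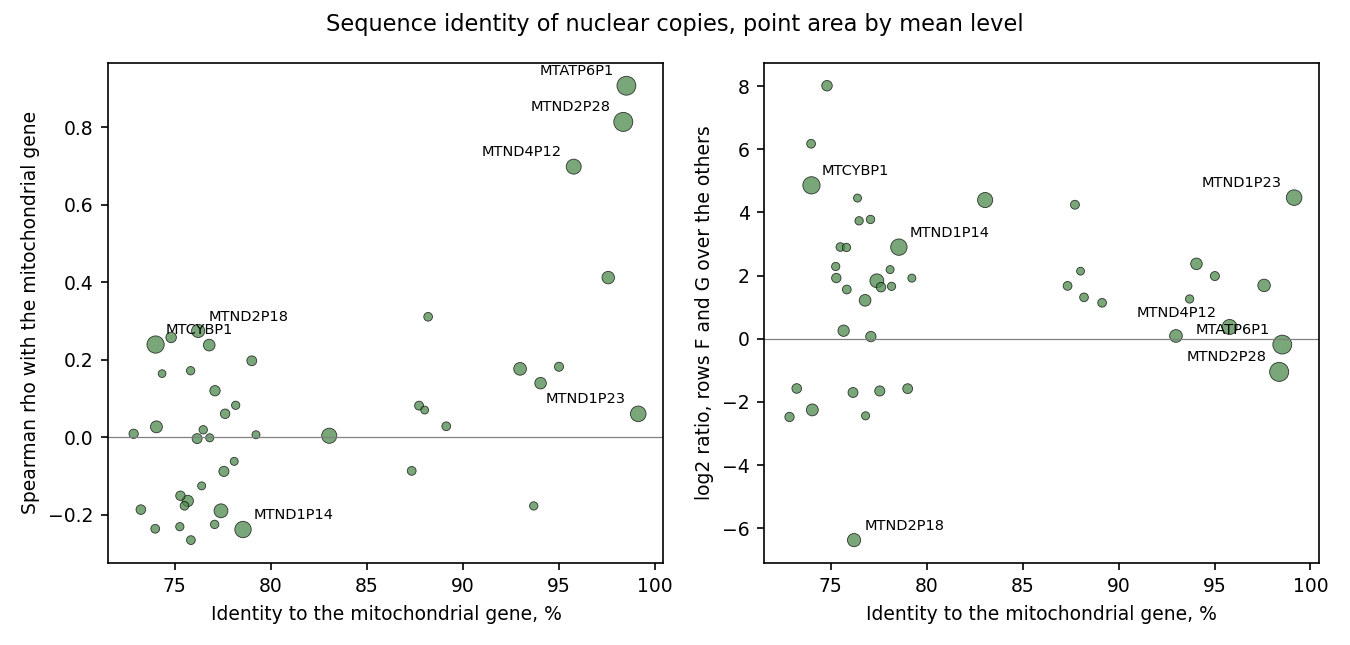
Identity to the mitochondrial gene in % for each copy against the Spearman correlation with that gene (left, 44 copies) and the log2 ratio of the mean in rows F and G over the others (right, 43 copies); point area grows with mean level. At over 95% identity the correlation is high for MTND2P28, MTATP6P1 and MTND4P12 and, over all libraries, 0.06 for MTND1P23, whose row ratio is high.

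Rows F and G had higher mean levels of most copies. The summed level was 1020 ± 550 CPM there (SD, n = 22; 382 to 2894, median 969) and 614 ± 337 CPM in the other rows (SD, n = 62; 181 to 2182, median 545), a ratio of 1.66, and the ranges overlapped. Of the 44 copies, 29 had a mean at least 2-fold higher in rows F and G and 10 a mean at least 2-fold lower; 36.8% and 12.7% of the 26134 genes detected in 10% or more of the reference libraries did. The median ratio was 3.18 for the copies and 1.35 (0.43 on the log2 scale) for all genes, so a shift in the same direction was also present over all genes. Among the 8 copies with a mean of at least 10 CPM, 5 were higher and 1 lower, against 12.1% and 13% of the 8995 genes at that level. That cut used the mean over all reference libraries. MTCYBP1, MTND1P23, MTND1P15 and MTCYBP3 met it only through rows F and G, and MTND2P18 missed it through its low level there. The count at this level is therefore a description as well. Of the 44, 12 had a read in under 10% of the libraries outside rows F and G, and 5 in under 10% of those in rows F and G. These could meet the detection minimum only through the libraries of the other side; 11 of the former are among the 29 and all 5 of the latter among the 10, so the counts over the 44 are a description and support nothing. The libraries of rows F and G all lay above those of the other rows for 2 copies, MTCYBP1 and MTND1P23, against 0.119% of all genes. For none of the copies did they all lie below, against 0.0153% of all genes. The rows were singled out with earlier results of these data known. The plate position cannot be told apart from the total of sequenced reads or the shares of unmapped and outside reads given above. With TMM factors, which move the median of all genes from 0.44 to -0.12 on the log2 scale when genes with reads on both sides are taken, the median of the copies moved from 1.68 to 1.33, and 24 were higher and 10 lower, against 25.3% and 23.8% of all genes.

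The copies of ND1 and cytochrome b differed most among the abundant ones. MTND1P23 was at 98.0 ± 61.2 CPM in rows F and G (28.8 to 241, median 86.2) and 4.42 ± 3.41 CPM in the others (0 to 15.3, median 3.38), a ratio of 22.2. Every library of rows F and G lay above every other library. MTCYBP1 was at 268 ± 234 CPM (53.2 to 1071, median 181) and 9.22 ± 9.55 CPM (0 to 50.5, median 6.16), a ratio of 29.02, again without overlap. MTND1P15 was at 74.2 ± 55.1 CPM (8.44 to 185, median 48.6) and 3.53 ± 3.88 CPM (0 to 15.99, median 2.16), a ratio of 21.01. Here 7 of the 62 other libraries lay above the lowest of rows F and G. MTND1P14 was at 126 ± 129 CPM (23.5 to 614, median 74.7) and 16.8 ± 14.7 CPM (3.55 to 91.5, median 12.2), a ratio of 7.48, with 12 of the 62 above the lowest of rows F and G. MTCYBP3 was at 23.8 ± 27.1 and 6.66 ± 7.95 CPM, a ratio of 3.57, and its ranges overlapped widely, with 41 of the 62 above that lowest library. These 5 were higher in every alternative run, by at least 1.34 on the log2 scale. The same direction was seen in each row alone: the median of MTND1P23 was 110 CPM in row F and 66.9 in row G and 2.05 to 5.29 in the other rows.

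Of the 6 copies at least 95% identical to the mitochondrial gene, MTND2P28, MTATP6P1 and MTND4P12 were not higher by 2-fold; the other 3 were, MTATP8P1 not without well F3 (0.58 on the log2 scale). MTND2P28 was lower in rows F and G, at 137 ± 98.0 CPM (13.8 to 350, median 132) against 284 ± 201 CPM (21.7 to 1336, median 254), a ratio of 0.48. The ranges overlapped and 47 of the 62 other libraries lay above the median of rows F and G. The log2 ratio of -1.05 was just past 2-fold: it was -0.96 without well E10, -0.92 without wells F2 and F3 and -0.94 between medians, and per 1000000 of all sequenced reads the ratio was 0.70. MT-ND2 itself had a ratio of 0.88. MTATP6P1 was at 199 ± 140 CPM in rows F and G and 225 ± 158 CPM in the others, a ratio of 0.88 that lies well within the spread and turns to 1.12 per 1000000 of all reads. MT-ATP6 had 0.76. MTND4P12 was at 24.4 ± 22.6 and 18.8 ± 9.09 CPM, a ratio of 1.30 whose direction turns with TMM factors (-0.41 on the log2 scale). The 13 mitochondrial protein genes had a median ratio of 0.74 and none passed 2-fold. In rows F and G the 4 copies MTCYBP1, MTND1P14, MTND1P23 and MTND1P15 made up 55.5% of the summed level of all copies and MTND2P28 with MTATP6P1 32.9%; in the other rows these shares were 5.54% and 82.9%.

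**Figure D4:**
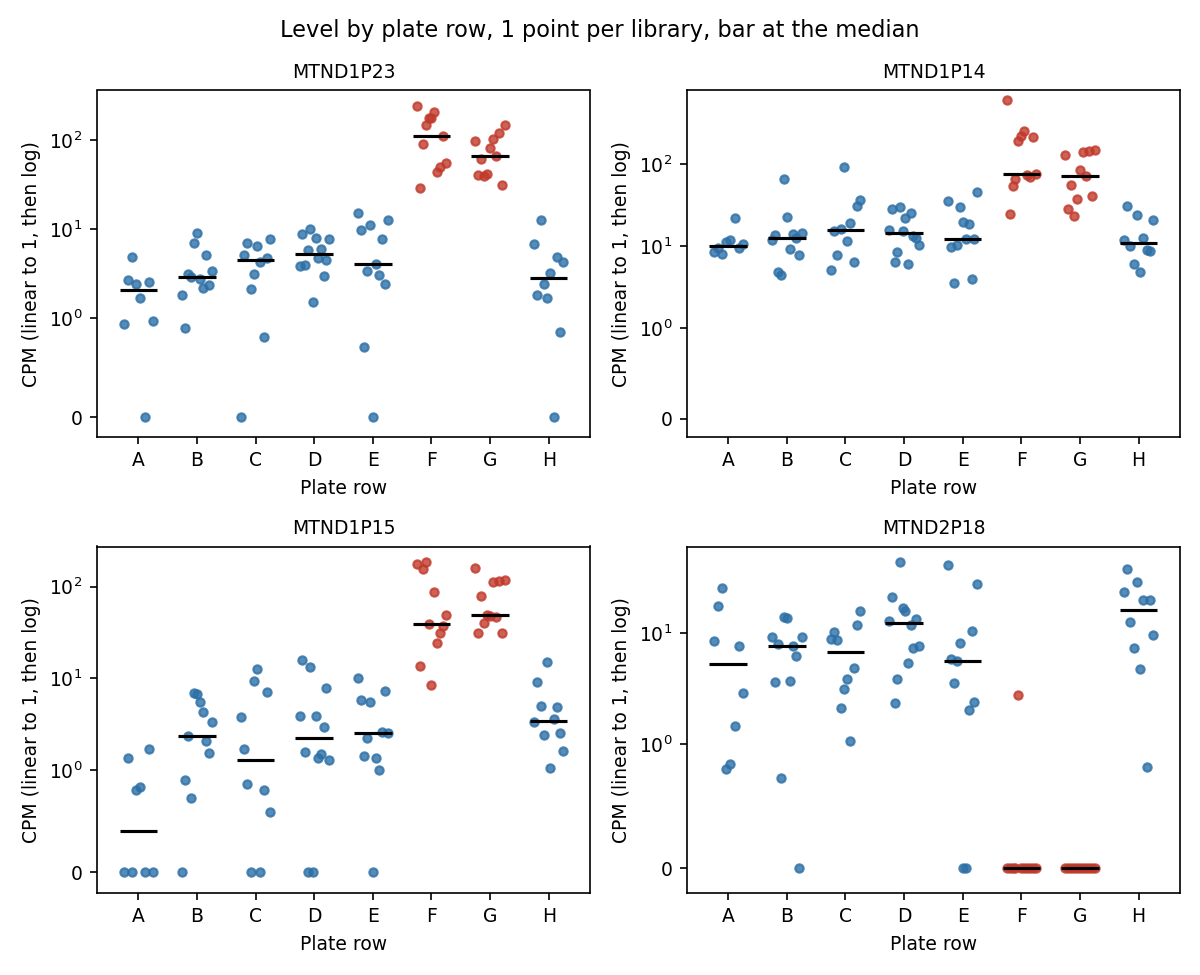
Level by plate row in CPM (linear up to 1, log above), 1 point per reference library with a bar at the median of the row, rows F and G in red. MTND1P23, MTND1P14 and MTND1P15 are high in rows F and G and low in the other rows; MTND2P18 has a read in 59 of the 62 other libraries and in 1 library of row F and none of row G.

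MTND2P18, a diverged copy of ND2 (76.2% identical) at chr2:131384461-131385490 on the minus strand, went the other way. It had a read in 59 of the 62 libraries outside rows F and G, at 10.4 ± 9.93 CPM (0 to 43.7, median 7.80), and in 1 of the 22 of rows F and G. That was 1 read against 474, and the ratio of pooled levels was 103, with an exact 95% counting interval of 18.4 to 4070. MTND2P18 is among the 5 copies that met the detection minimum only through these other rows. MTCO1P4, in contrast, had 65 reads in rows F and G, spread over 20 of 22 libraries, and 2 in the others. Its ratio of pooled levels was 150, with an interval of 39.8 to 1263. It met the detection minimum only through rows F and G, so both ratios are descriptions. The 10 lower copies include MTND6P14, with 11 reads in the other rows and 0 in rows F and G, a difference that this depth cannot show, since a floor of 3 reads in rows F and G would exceed the level of the others. They also include MTND5P9, with 2 reads in rows F and G and 12 in the others, a ratio of pooled levels of 1.30 with an interval of 0.29 to 11.98.

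By mitochondrial gene, the higher copies were 6 of 8 for MT-ND1, 2 of 4 for MT-ND2, 7 of 9 for MT-ND4, 5 of 12 for MT-ND5 and 2 of 3 for MT-ND6. Both copies of MT-CYB, MT-CO1 and MT-ATP8 were higher, and so was 1 of the 2 of MT-ATP6. The lower ones were 5 copies of MT-ND5, 2 each of MT-ND1 and MT-ND2 and 1 of MT-ND6. Most of these are sparse: of the 36 copies under 10 CPM, 24 were higher and 9 lower, against 49.7% and 12.6% of the 17139 genes at that level, and 22 of the 44 copies had fewer than 50 reads in all. MTATP8P2 was at 8.004 ± 6.15 and 1.54 ± 1.62 CPM, a ratio of 5.18, and MTND2P21 at 6.03 ± 6.56 and 2.59 ± 4.54 CPM, a ratio of 2.33 that is under 2-fold with TMM factors (0.78 on the log2 scale). MTATP8P1 was at 10.98 ± 28.1 and 3.40 ± 3.66 CPM, a ratio of 3.23, but well F3 held 29.8% of its summed CPM. Its log2 ratio of 1.69 was 0.58 without that well and 0.35 with TMM factors. MTND5P11 and MTND4P22 had ratios of 1.06 and 1.05, within the spread. MTND5P1 had a ratio of 1.19 (0.26 on the log2 scale), which rests on well H3: without it the log2 ratio was 2.43. MTND5P16 had a read in only 9 libraries, and its log2 ratio of -2.25 was -1.01 without well H12. MTND4P8, MTND6P4, MTND6P3, MTATP6P2 and MTCO1P3 had ratios of 3.80, 3.96, 2.20, 2.48 and 4.41 at means under 1 CPM; those of MTND6P3 and MTATP6P2 are under 2-fold with TMM factors, and that of MTND6P3 turns when row G is taken alone (-0.21 on the log2 scale). That of MTCO1P3, 2.14 on the log2 scale, was 0.57 in row G alone, under 2-fold. The 21 copies that the rule for names left out had means of 0.24 to 1.44 CPM, and 15 of them were higher and 6 lower.

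Inside rows F and G the copies with high row ratios moved with the quality of the library. MTND1P23 had rho = 0.88 with the share of reads outside genes and -0.86 with the number of gene reads (n = 22 libraries; Pearson r = 0.77 and -0.72). For MTCYBP1 these were 0.86 and -0.80, and for MTND1P14 0.85 and -0.75. MTND1P15 followed these 2 measures less closely, at 0.43 and -0.49, and so did MTCYBP3, at 0.51 and -0.48. MTND2P28 had -0.12 and 0.25 and MTATP6P1 0.11 and 0.16. With the share of reads mapped to several places, MTND1P23 had 0.89, MTCYBP1 0.82, MTND1P14 0.72, MTND1P15 0.73 and MTCYBP3 0.50. MTND2P28 and MTATP6P1 each had -0.17 with that share. In the 62 other libraries MTND1P23 had 0.20 with reads outside genes and -0.34 with gene reads. MTCYBP1 had -0.17 and -0.46 there, MTND1P14 0.23 and -0.60, MTND1P15 0.35 and -0.54, and MTCYBP3 0.48 and -0.54. Gene reads are also the denominator of CPM, so these values are not independent of it. Among themselves, MTCYBP1 and MTND1P23 had rho = 0.96 in rows F and G, MTCYBP1 and MTND1P14 0.89, and MTND2P28 and MTATP6P1 0.72, while MTND2P28 and MTND1P23 had -0.23. In the other rows the first pair had 0.01, the second 0.51 and MTND2P28 and MTATP6P1 0.58. The part of library quality in the row ratios was not tested.

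The 6 passing libraries with under 1% mitochondrial reads were wells A4, B8, H1 and H4, and F9 and G3 in rows F and G. Reads on the mitochondrial genes were few in all 6, and almost absent only in F9 and G3. They were shallow, with 105528 to 155710 gene reads, and also low in nuclear housekeeping RNA. ACTB was at 15.98 to 82.8 CPM, against 359 to 2828 CPM in the reference libraries. GAPDH was at 0 to 47.4 CPM, against 0 to 3844 CPM (median 1062) in the reference libraries, so its ranges overlapped. Being chosen by their mitochondrial share, they are described and not compared by a test. MTND2P28 had 0, 0, 9.48 and 9.20 CPM in A4, B8, H1 and H4, and 0 in F9 and G3, which is 2 reads in all. MTND4P12 had 4 reads in all. MTATP6P1 had 77.1, 84.4, 66.3 and 110 CPM in the first 4 and 7.99 and 17.3 CPM in F9 and G3. In the first 4 libraries that was 41 reads, more than the 34 of MT-ATP6 there, so MTATP6P1 was not as low as MTND2P28, which had 2 reads beside 23 of MT-ND2.

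The copies high in rows F and G were present in these libraries, again mainly in rows F and G. MTND1P23 had 471 and 432 CPM in F9 and G3 and 12.8, 16.9, 28.4 and 27.6 CPM in A4, B8, H1 and H4. MTND1P15 had 400 and 570 CPM in the former and 44.96, 33.8, 28.4 and 27.6 CPM in the latter. MTND1P14 had 424 CPM in both of the former and 89.9, 101, 256 and 156 CPM in the latter. F9 and G3 together held 102 reads of MTND1P14, 109 of MTND1P23 and 116 of MTND1P15 and 0 of MT-ND1. MTND2P18 had 96.3, 42.2, 85.3 and 267 CPM in A4, B8, H1 and H4 and 0 in F9 and G3, the same split by rows as in the reference libraries. In all, the copies had 692 reads in F9 and G3 beside 15 on the 13 mitochondrial protein genes. In A4, B8, H1 and H4 the copies had 349 reads beside 1256 on those genes.

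Ratios of CPM between these libraries and the rest are open to the scale, since most of the abundant genes were low in them. Relative to their own rows, A4, B8, H1 and H4 had 6264 of 8995 such genes (10 CPM or above) 2-fold lower and 1363 higher. F9 and G3 had 5368 of them lower and 1587 higher. Against the reference libraries of the same rows, 21 of 44 copies had a mean at least 2-fold higher in A4, B8, H1 and H4, and 23 a mean at least 2-fold lower; 37.6% and 49.7% of all genes did. In F9 and G3 these were 23 and 18 copies, against 39.3% and 44.6% of all genes. Counted instead per 1000000 of all sequenced reads, mapped or not, a scale added after the data were seen, the copies differed. MTND1P23 was at 12.3 ± 3.27 in the reference libraries of rows F and G (8.54 to 23.3) and at 14.1 and 15.9 in the libraries under 1%. MTND1P14 was at 14.7 ± 7.66 and at 13.9 and 14.3, and MTCYBP1 at means of 31.8 and 39.1, a ratio of 1.23. MTND1P15 was at 9.37 and 16.1 (a ratio of 1.72) and MTCYBP3 at 2.99 and 3.46 (1.16). On the same scale MTATP6P1 was at 31.6 in the reference libraries and 0.42, from 3 reads, in those under 1%, and the 13 mitochondrial protein genes were 6466-fold lower.

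In rows A to E and H, the ratio of A4, B8, H1 and H4 to the reference libraries on that scale was 1.22 for MTND1P14, 1.09 for MTCYBP1, 1.08 for MTCYBP3, 1.42 for MTND1P15, 1.64 for MTND2P18 and 1.33 for MTND5P11. MTND1P23, with 10 reads in these libraries, stood at 0.60. MTATP6P1 was 25.4-fold lower. MTND4P12 was at 2.23 in the reference libraries and 0.03, from 1 read, in the others, and MTND2P28 at 33.1 and 0.06, from 2 reads. The median ratio over all genes was 0.05 in these rows and 0.17 in rows F and G. Between rows F and G and the others, the ratio on this scale was 26.5 for MTND1P23, 36.9 for MTCYBP1, 30.4 for MTND1P15, 9.17 for MTND1P14 and 0.01 for MTND2P18, with a median of 1.80 over all genes.

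**Figure D5:**
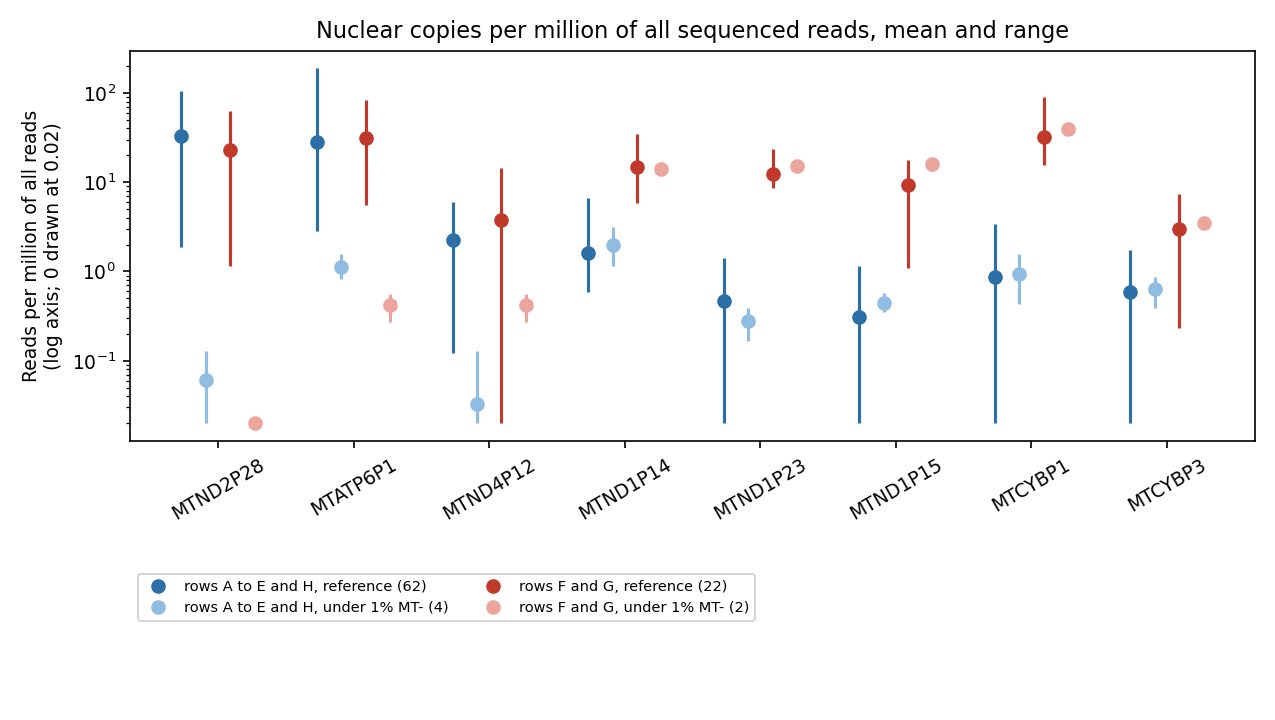
Mean (points) and range (lines) of 8 copies in reads per 1000000 of all sequenced reads, log axis with 0 drawn at 0.02, for reference libraries (dark) and libraries under 1% mitochondrial reads (pale) in rows A to E and H (blue) and rows F and G (red). MTND2P28, MTATP6P1 and MTND4P12 are lower in the pale libraries of both row groups, and MTND1P14, MTCYBP1 and MTCYBP3 lie near the dark ones of their rows.

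Copies that lie side by side had unlike row ratios in some clusters and like ones in others. MTND1P23, MTND2P28, MTATP8P1 and MTATP6P1 lie within 5315 bases, at chr1:629062-634376 on the plus strand, inside an intron of AL669831.3, which runs the other way; the other members of this insertion were not analysed here. Their row ratios were 22.2, 0.48, 3.23 and 0.88. MTATP8P1 and MTATP6P1 overlap, so reads over the shared bases would be called ambiguous without strand. In PCBD2, a gene for a dimerization cofactor of a transcription factor, MTND4P12, MTND5P11 and MTND6P4 lie within 3914 bases of intron, with ratios of 1.30, 1.06 and 3.96, and PCBD2 itself had 0.73. MTCYBP3 and MTND5P2 lie within 3168 bases in DNAJC3, which codes for a chaperone cofactor of the endoplasmic reticulum, with ratios of 3.57 and 0.33, and DNAJC3 had 0.67. In all, 8 such clusters, with gaps of at most 20000 bases, held 21 copies. In 4 of them a 2-fold higher copy lay beside a 2-fold lower one. In 3 all copies were higher, such as MTND5P12 and MTND6P3, with ratios of 3.19 and 2.20 within 2010 bases. Most of these copies are sparse. The cluster of MTND6P14 rests on a difference that this depth cannot show, and that of MTND2P28 on a ratio just past 2-fold. Of all genes, 36.8% were higher and 12.7% lower, and no share over clusters of other genes was computed. With overlaps between nuclear copies of mitochondrial genes set aside, 20 of the 44 lay only in introns of another gene and 2 overlapped an exon of one. A further 20 overlapped no gene, and the rest overlapped only another such copy. For 14 copies the host gene had a level; of the 2-fold higher ones among them, 3 had a host that was 2-fold higher as well and 4 a host that was not. MTND1P14 (chr17:19602259-19603208), MTND1P15 (chr17:22524738-22525686) and MTCYBP1 (chrY:8364032-8365150) lie on the plus strand and overlap no protein-coding gene, though MTND1P15 overlaps an antisense RNA, AC132825.2. On the 16 copies with at least 100 reads, the strand columns split the reads 23.4 to 83.9% to the first.

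Other nuclear copies on the plate were set beside these. Of 11 of the 13 nuclear copies of the 16S ribosomal RNA gene (MTRNR2L1 to MTRNR2L13) that had a read in enough libraries, 9 were at least 2-fold higher in rows F and G and 0 lower, with a median ratio of 5.03. MTRNR2L8, MTRNR2L7 and MTRNR2L12 had ratios of 14.7, 9.63 and 9.60, and MT-RNR2 itself had 0.96. Of 361 pseudogenes of ribosomal protein genes, 46.5% were higher and 14.7% lower, with a median ratio of 1.83. Their summed level was 1624 ± 556 CPM in rows F and G and 909 ± 218 CPM in the others. Over all genes 36.8% were higher and 12.7% lower, and among genes under 10 CPM 49.7% and 12.6%. The 3 lists were chosen with earlier results known and their differences were not tested.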

How the data were processed

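The data were 96 tables of raw counts of reads per gene that the authors deposited, 1 per well, each with 58521 symbols, 3 columns (both strands pooled, then either strand) and 4 summary lines. Per the submitters' processing notes FastQC and STAR 2.7.3a were used, with GRCh38.p2 and hg38 named as builds; for read length, trimming and annotation release nothing is given in the sources used here. Reads mapped to several places stand in a summary line and in no gene, as do ambiguous reads, and the 4 lines entered only as shares. How much of a close copy can be read apart therefore depends on read length. For 16 wells in columns 1 and 12 the table's name and the title disagreed on the column; titles were followed, and rows are the same in both.

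The column of pooled strands was scaled to CPM, reads per 1000000 gene reads. Means, SDs and ratios of means were computed with Python 3.11.15, pandas 2.3.3 and scipy 1.17.1, and checked on simulated counts. A gene was called higher or lower at a 2-fold ratio. Copies were aligned to the mitochondrial gene with biopython 1.88 in GENCODE 29, which is not known to be the authors' annotation. TMM (edgeR 4.0.16) and DESeq2 1.42.0 gave alternative factors only. Named were, for each mitochondrial gene, the 3 copies with the highest mean, those of the chromosome 1 insertion and those at 10 CPM or more past 2-fold; MTND5P26, MTND5P2, MTND5P9, MTND5P12, MTND5P18, MTND1P3 and the 16S copies were named after their values were seen. The copies and lists were chosen with earlier results of these data known.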

Additional observations from a re-analysis of the deposited data

Results flagged for a closer look

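The 6 libraries that missed the minimum of gene reads or of genes entered no comparison, yet pooled they held 255 reads on the 44 copies among 283258 gene reads, or 900 CPM, above the 3 reads that a count of 0 allows. MTND1P14 made up 107 of these reads, beside 13 reads of MT-ND1. MTCYBP1 had 55, MTATP6P1 19, MTND2P18 16, MTCYBP3 14 and MTND2P28 3. Single libraries of this set had 0 to 100 reads on the copies, so only the pooled value is given.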

How the results depend on the processing

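No paired analysis was possible because all wells carried 1 label and their numbers only name them. The summed level stayed between 485 and 828 CPM under 15 alternatives, its log2 row ratio between 0.13 and 0.95 under 16, and the reads per 100 mitochondrial protein reads (median over libraries) between 0.769 and 0.822 under 11. Counts of higher and lower copies moved with how many copies entered. They were 53 and 17 with a read in 5% of libraries and 19 and 6 with 20%. With no minimum they were 99 and 34 of 177 symbols, most of them sparse. No share over all genes was computed at these other minimums, so the counts there show only how they vary. After thinning to 100000 gene reads they were 9 and 3 of 19 copies. After that thinning 25.1% of all genes were higher and 14.02% lower. With medians in place of means the counts were 15 and 3 of 44 copies, since most copies have a median of 0. By medians 33.7% of all genes were higher and 7.43% lower, so the copies then showed no clear excess over all genes. With medians 4 copies reached 10 CPM. Under other scales 23 to 29 copies were higher and 7 to 10 lower, against 24.7 to 45.8% and 7.48 to 25.01% of all genes. The summed level in libraries under 1% mitochondrial reads against the reference libraries was 1.01 on the log2 scale by gene reads but reversed with TMM (-0.69), DESeq2 factors (-0.93) and all sequenced reads (-1.23). Copies with rho of at least 0.5 numbered 7 within rows F and G. Stretches identical to a mitochondrial transcript occurred in 8 copies at 50 bases and 3 at 100. Of single named copies past 2-fold, only MTND6P3 reversed, in row G alone (-0.21). Among those under 2-fold, MTATP6P1, MTND4P12, MTND5P11, MTND4P22 and MTND5P1 changed sign under some alternative. Leaving out wells F2 and F3, which were low in GAPDH, or E10, and the scale of all reads, were chosen after seeing the data. Depth limits the 22 copies with fewer than 50 reads.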
